A study of Mus musculus with 1536 samples.

Results

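The neurofilament and peripherin genes are the 5 genes Nefl, Nefm, Nefh, Ina and Prph, chosen by name as a family of intermediate filament genes and found in the deposited table among 53263 listed genes. All 5 passed the filters on low values used here, that is at least 1 read in at least 3 cells (25522 genes) and a mean of at least 10 CPM (counts of a gene per 1000000 counted reads of the cell, 8087 genes). They were measured in 999 single serotonin neurons of C57BL/6J mice aged 40 to 45 days that carried a Cre crossed with the reporter Ai14 (labelled Sert-tdTomato-Cre cross with Ai14), so that cells in which the Cre driven by the serotonin transporter gene had been active made the red protein tdTomato and were sorted singly by it. All cells share this genotype, strain and age and none was treated, and no group without Cre is part of the comparison. One dissection, labelled Principal DR (pDR), gave 290 cells on 5 plates, and the other, labelled All DR, gave 709 cells on 11 plates. According to the study the All DR dissection also took in the caudal dorsal raphe and the median raphe, which its labels do not name, and each dissection was made in several mice, of both sexes over the study. The labels tie no cell or plate to a mouse or a sex, so each dissection is 1 sample here, plates may share animals, no p-value was computed, and the part of sex in the differences was not tested. Where a spread is given, it is that between plates.

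The Smart-seq2 libraries, which copy full-length polyadenylated RNA without molecular identifiers, held between 96834 and 2780443 reads on genes, with medians of 755926 in the pDR and 869546 in the All DR dissection. Serotonin identity was clear in the libraries. Tph2 and Fev had a read in all 999 cells, Slc18a2 in 998 and Slc6a4 in 997. Markers of other cells were low, with Mog in 13 cells, Aqp4 in 38 and the cholinergic genes Chat, Slc5a7 and Slc18a3 in 8, 7 and 4 cells, although the myelin transcripts Mbp and Cnp had a read in 744 and 959 cells and the glycolytic enzyme gene Aldoc, listed as an astrocyte marker, in 992.

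Neuronal intermediate filaments are rope-like polymers that fill axons, give them mechanical strength and set their diameter. Nefl, the light subunit, forms the core of a neurofilament, to which Nefm and Nefh, the medium and heavy subunits, add long tails that are phosphorylated in the axon. Ina, alpha-internexin, joins these 3 subunits in central neurons, and Prph, peripherin, does so in neurons with peripheral axons and in a few groups of central neurons. Serotonin neurons of the raphe send long, highly branched and mostly thin axons through the forebrain.

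All 5 are annotated as protein-coding by GENCODE M21, on the mouse build GRCm38 (mm10). Nefl lies at chr14:68083863-68089095 on the plus strand with 4 exons, and its neighbour Nefm at chr14:68082590-68124846 on the minus strand. A second, longer transcript of Nefm has an exon that covers 1108 bases (32.8%) of the Nefl transcript. Because reads were counted without regard to strand, reads in those bases belong to both genes and may have gone uncounted. Nefh lies at chr11:4938754-4948064 on the minus strand, and Ina at chr19:47014698-47025327 on the plus strand, where it shares 456 bases (14.1%) with an exon of Nt5c2 on the other strand. Prph lies at chr15:99055174-99058978 on the plus strand, with 9 exons in its first transcript and no exon shared with another gene.

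RefSeq promoter windows (GRCm38.p6) were matched for 2 of the 5 genes, Ina and Prph. Both are shown because these genes differed in opposite directions between the dissections. The 250 bases before each RefSeq start are printed 5′ to 3′, at chr19:47014431-47014680 for Ina and chr15:99054924-99055173 for Prph, both on the plus strand. Capitals mark matches, on either strand, to the motifs searched for, which were the TATA box TATAAA, the GC box GGGCGG, the E-box CAGCTG and the core of the cyclic AMP response element, TGACG.
Ina: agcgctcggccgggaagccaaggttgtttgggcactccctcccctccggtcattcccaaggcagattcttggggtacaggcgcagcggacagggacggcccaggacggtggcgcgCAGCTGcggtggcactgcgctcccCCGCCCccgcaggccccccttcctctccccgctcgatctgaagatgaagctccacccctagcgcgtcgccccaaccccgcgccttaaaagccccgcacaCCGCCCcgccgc
Prph: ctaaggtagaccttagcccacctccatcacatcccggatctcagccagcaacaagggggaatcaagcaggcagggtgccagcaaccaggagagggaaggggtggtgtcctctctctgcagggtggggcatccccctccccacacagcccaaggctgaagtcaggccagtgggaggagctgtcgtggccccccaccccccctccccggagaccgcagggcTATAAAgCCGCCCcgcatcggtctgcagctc
Prph had TATAAA from 31 to 26 bases before the start and GGGCGG on the other strand (CCGCCC) from 24 to 19 bases before it. Ina had GGGCGG on the other strand from 111 to 106 and from 12 to 7 bases before the start, and the palindrome CAGCTG from 135 to 130 bases before it. These letters are common. TATAAA was present in 12.4%, GGGCGG in 32.7%, CAGCTG in 13.0% and TGACG in 17.8% of all 32851 promoter windows of 250 bases, and the matches overlapped none of each other. No TGACG was found in either window.

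The 4 subunits other than Prph were general features of these neurons, whereas Prph was present in a minority. Ina had a read in 99.6% of the 999 cells, Nefl in 92.6%, Nefh in 91.9% and Nefm in 88.7%, and 807 cells (80.8%) had all 4. Prph had a read in 36.7%. All 5 genes had a read in 288 cells (28.8%). Mean levels over all cells were 260 CPM for Ina, 152 CPM for Nefl, 74.9 CPM for Nefm, 52.0 CPM for Prph and 44.1 CPM for Nefh. Smart-seq2 reads cover whole transcripts, so levels of different genes are compared per length of transcript, taking only bases not shared with another gene. On that scale Ina made up 41.9% of the summed level of the 5 genes, Nefl 29.9%, Prph 13.2%, Nefm 10.1% and Nefh 4.94%. With whole transcript lengths the order of Nefm and Prph was the same, and Nefl came to 23.8%.

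Prph was distributed unevenly. Of 999 cells, 632 had no read of it, 48 had less than 10 CPM, 170 had 10 to 100 CPM and 149 had at least 100 CPM. In the pDR dissection 107 of 290 cells (36.9%) were in the last group, and in the All DR dissection 42 of 709 (5.92%). Cells without Nefl were few. The 74 cells with no Nefl read had a median of 764280 reads, against 837714 in the 925 cells with one. Their median number of detected genes was 8827, against 9601. Of the 74, 50 (67.6%, exact 95% interval 55.7 to 78.0%) were positive for Gad1 or Gad2, against 29.7% of the cells with a Nefl read. Of the 44 cells with neither Nefl nor Nefm, 32 were Gad positive and 0 were among the 310 cells of none of the marker classes described below, which allows a share of up to 0.968% of those cells. Intervals and limits cover counting error only.

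The dissections differed in 4 of the 5 genes. Nefl, Nefm and Ina were lower and Prph higher in the pDR than in the All DR dissection by more than 1.5-fold, and the plates of the dissections did not overlap for any of the 4. Over all 8087 genes, 9.61% were over 1.5-fold higher and 5.75% over 1.5-fold lower in the pDR, and in 5.08% all pDR plates lay above, in 6.52% below, all plates of the other dissection.

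For Nefl the 5 pDR plates had mean levels of 114, 103, 105, 75.0 and 78.3 CPM, and the 11 All DR plates ran from 137 over a median of 168 to 231 CPM. Every pDR plate was below every All DR plate, and the log2 ratio of the mean over plates was -0.86 (95.0 ± 17.3 against 173 ± 28.2 CPM, SD over plates). For Nefm the pDR plates had 39.9, 32.9, 43.9, 20.4 and 23.1 CPM and the All DR plates 68.2 to 165 CPM with a median of 85.7. The plates were again separate, with a log2 ratio of -1.52, a 2.87-fold lower level in the pDR.

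Ina, the most abundant of the family, had 187, 188, 159, 157 and 140 CPM in the pDR plates and 249 to 350 CPM, with a median of 297, in the All DR plates. The gap between the lowest All DR plate and the highest pDR plate was wider than the whole range of the pDR plates, and the log2 ratio was -0.84. For Prph the pDR plates had 136, 159, 125, 62.7 and 113 CPM, and the All DR plates 1.82 to 37.5 CPM with a median of 18.1. The log2 ratio was 2.58, a 5.97-fold higher level in the pDR, and 99.9% of the 8087 genes had a lower ratio. The share of cells with a Prph read was 68.3% in the pDR and 23.8% in the All DR dissection, and with every cell thinned to 250000 reads it was 67.5% and 22.1%.

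Nefh, the heavy subunit, was the exception. Its pDR plates had 51.0, 43.4, 58.4, 34.5 and 33.7 CPM and its All DR plates 24.5 to 56.9 CPM with a median of 42.1. These ranges overlapped and the log2 ratio was 0.09. Plates SER39 and SER40 were the lowest of the pDR plates for Nefl, Nefm and Nefh, and SER67, the highest All DR plate for Nefl, Nefm and Ina, was the lowest for Prph.

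**Figure D1:**
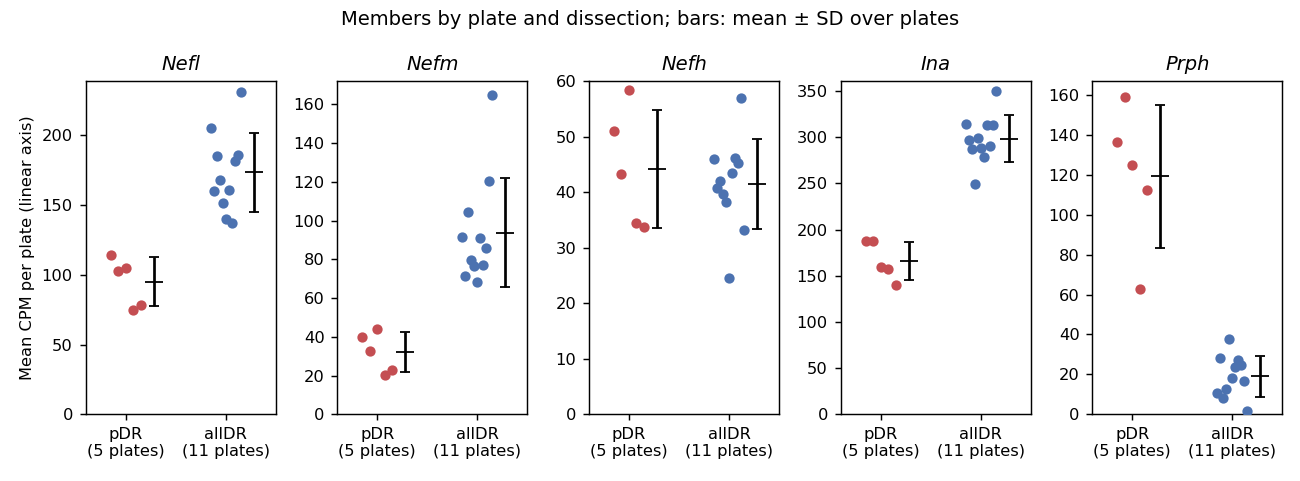
Mean CPM of the 5 genes on each plate (points, linear axes) by dissection, with the mean ± SD over 5 pDR and 11 All DR plates (bars). The pDR plates lie below all All DR plates for Nefl, Nefm and Ina, among them for Nefh, and above them for Prph (62.7 to 159 against 1.82 to 37.5 CPM).

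Other transcripts moved with the dissection too. The immediate-early genes Fos and Egr1 had log2 ratios of -1.73 and -1.88 and the myelin gene Mbp of -2.19 (pDR over All DR), while the median summed level of the 6 oligodendrocyte markers was 102 CPM in pDR and 109 CPM in All DR cells. The part of the immediate-early genes in the filament differences was not tested. With every cell thinned to 250000 reads the log2 ratios were -0.84 for Nefl, -1.59 for Nefm, 0.05 for Nefh, -0.84 for Ina and 2.57 for Prph, and in cells with at least 500000 reads -0.88, -1.59, 0.06, -0.85 and 2.54, again past 1.5-fold for all but Nefh. Without the tenth of the cells of each plate that were highest in oligodendrocyte markers, the log2 ratios were -0.84 for Nefl, -1.52 for Nefm, 0.13 for Nefh, -0.82 for Ina and 2.48 for Prph.

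The dissections also hold different kinds of cell, so the same ratios were taken within kinds. The kinds used here were set by marker genes and not by clusters, and they overlap. Cells were Gad positive with at least 10 CPM of Gad1 and Gad2 together (the enzymes that make GABA, 325 cells), Trh positive with at least 10 CPM of Trh (the precursor of thyrotropin-releasing hormone, 125 cells), Rorb-high with at least 50 CPM of the nuclear receptor gene Rorb (256 cells), and Zeb2 or Irx2 positive with at least 10 CPM of these transcription factor genes (138 and 141 cells). Of the Trh positive cells 114 were also Gad positive, of the Rorb-high cells 51 were Zeb2 and 61 Irx2 positive, and 310 cells were in none of the 5 classes. In the pDR dissection there were 180 Gad, 90 Trh, 25 Rorb-high and 5 Irx2 positive cells and 0 Zeb2 positive cells, which allows a share of up to 1.03%.

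Among Gad positive cells, Prph was 180 CPM (110 to 235 over 5 pDR plates) in the pDR and 45.9 CPM (2.78 to 85.0 over 10 plates) in the All DR dissection. The plates did not overlap (log2 ratio 1.95). Ina was 147 CPM (133 to 165) against 252 CPM (175 to 336), again with no overlap (log2 ratio -0.77). Nefl and Nefm had log2 ratios of -0.41 and -0.87 with overlapping plates. In this comparison 11.0% of genes were over 1.5-fold higher and 7.91% lower in the pDR, and all pDR plates lay above or below the others for 2.91% and 2.57%. Of the Gad positive cells, 88 of 180 in the pDR and 26 of 145 in the All DR dissection were also Trh positive. In Gad positive cells without Trh the plates overlapped for Prph (57.7 to 134 against 0 to 67.2 CPM, log2 ratio 2.28). They also overlapped for Ina (107 to 186 against 181 to 336 CPM, log2 ratio -0.81).

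Among the 663 cells with neither Gad nor Trh, Ina was 198 CPM (146 to 244) in 5 pDR and 312 CPM (267 to 354) in 11 All DR plates, and Nefm 47.8 CPM (26.1 to 61.9) against 108 CPM (70.7 to 190). Neither pair of ranges overlapped, with log2 ratios of -0.66 and -1.16. Nefl (log2 ratio -0.43) and Prph (0.93, 17.6 against 8.73 CPM) overlapped between the dissections, as did Nefh (0.22). For these cells 8.5% of genes were over 1.5-fold higher and 4.79% lower in the pDR, with 3.1% and 3.67% of genes without overlap. In the 310 cells of none of the classes the log2 ratios were -0.73 for Nefl, -1.13 for Nefm, -0.56 for Ina, -0.08 for Nefh and 0.64 for Prph, over 5 pDR and 9 All DR plates. Nefm (22.9 to 63.3 against 71.6 to 122 CPM) and Ina (146 to 232 against 243 to 334 CPM) did not overlap, and the other 3 did. Over all genes 8.15% were over 1.5-fold higher and 4.54% lower in the pDR in these cells, and 2.52% and 1.78% did not overlap, above and below. The log2 ratios of Ina and Nefm were thus below 0 within Gad positive cells, cells with neither marker and cells of no class, while Prph was 1.91-fold higher in cells with neither Gad nor Trh and 3.86-fold higher in Gad positive cells. Trh positive cells had enough cells on 5 pDR and 2 All DR plates. There Ina was at 0.06 (133 against 128 CPM), Nefl at -0.35, Nefm at -0.65 and Nefh at -0.34, and Prph was 1.47-fold higher in the pDR (136 to 397 against 89.2 to 287 CPM). In Rorb-high cells, on 2 pDR and 11 All DR plates, the log2 ratios were 0.38 for Nefl, -0.43 for Nefm, 0.66 for Nefh, -0.25 for Ina and 0.96 for Prph.

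Within plates, Gad positive cells had less Nefl and Nefm and more Prph than the other cells. The ratio was taken in the 15 plates with at least 5 cells of both sorts and is given as the median over plates. Nefl ran from 45.5 over a median of 74.3 to 117 CPM in the Gad positive cells of these plates, and from 109 over 191 to 261 CPM in the others. It was lower in the Gad positive cells of 15 of 15 plates, with a median log2 ratio of -1.25 (-1.78 to -0.76). Nefm was lower in 15 of 15 plates as well, with a median log2 ratio of -1.31 (-1.81 to -0.72). Prph ran from 2.78 over 78.1 to 235 CPM in Gad positive and from 1.58 over 14.3 to 34.8 CPM in other cells, and was higher in 14 of 15 plates, with a median log2 ratio of 2.39 (-0.60 to 3.60). The exception was plate SER52, with 8.56 against 13.5 CPM.

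Of the 5 genes, 3 were past 1.5-fold. Over all 8087 genes 1.32% were higher and 1.43% lower by that much in Gad positive cells, and 99.9% of genes had a lower ratio than Prph. Nefh and Ina stayed within 1.5-fold, at -0.37 (lower in 13 of 15 plates) and -0.32 (lower in 15 of 15 plates). The log2 ratio of Nefl had a median of -1.25 over 5 pDR and of -1.25 over 10 All DR plates, whereas for Prph the medians were 3.11 and 1.77, with overlapping plates (2.43 to 3.60 against -0.60 to 2.98). Whether the latter differ was not tested.

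**Figure D2:**
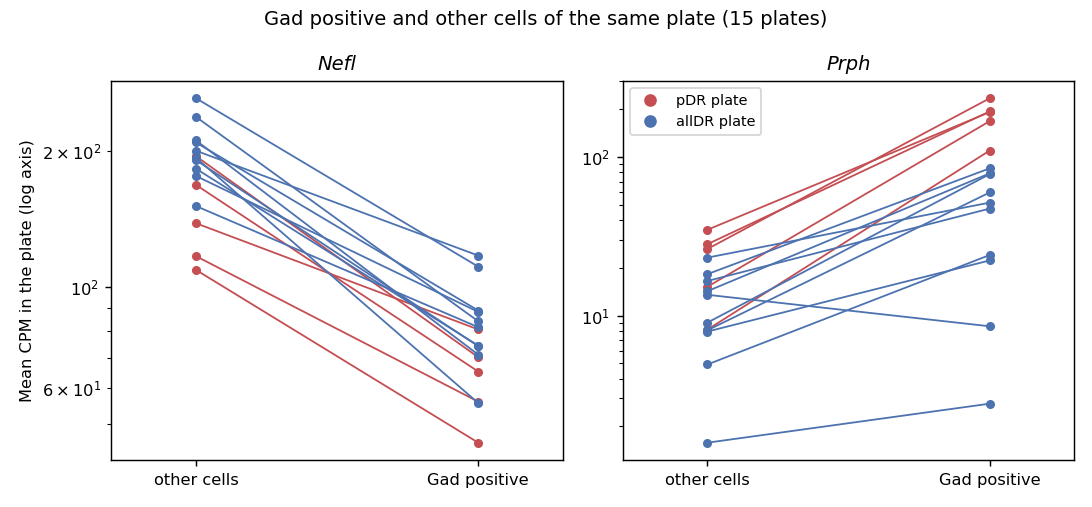
Mean CPM (log axis) of Nefl and Prph in the other and the Gad positive cells of each of 15 plates, joined by a line and coloured by dissection. All 15 lines fall for Nefl and 14 of 15 rise for Prph.

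Most of the cells with much Prph were Gad or Trh positive. Of the 149 cells with at least 100 CPM of Prph, 134 (89.9%, 83.9 to 94.3%) were Gad or Trh positive, 1 was Rorb-high, 1 was Zeb2 positive and 0 were Irx2 positive. Of the 680 cells under 10 CPM, 131 (19.3%, 16.4 to 22.4%) were. The order held in each dissection, with 102 of 107 such cells in the pDR and 32 of 42 in the All DR dissection.

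Prph was high in Trh positive cells, with and without Gad. In the pDR dissection, Prph was 279 CPM in the 88 cells with both, 115 CPM in the 92 with Gad alone and 18.2 CPM in the 108 with neither. In the All DR dissection the same means were 166 CPM in 26 cells, 23.0 CPM in 119 and 8.56 CPM in 555. Both dissections gave the same order of these 3 kinds, and the cells of each kind had more Prph in the pDR. The few cells with Trh and no Gad were higher still, at 423 CPM in 2 pDR and 240 CPM in 9 All DR cells. The share of cells with a Prph read was 95.5%, 77.2% and 38.0% in cells with both, Gad alone and neither of the pDR and 92.3%, 21.0% and 20.2% in those of the All DR dissection, so that in the latter the share in cells with Gad alone lay close to that in cells with neither.

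Trh positive cells, compared within 7 plates, had Prph at 89.2, 136, 235, 243, 287, 373 and 397 CPM and the other cells of these plates at 4.44 to 78.2 CPM. Prph was higher in 7 of 7 plates, with a median log2 ratio of 2.47 (1.57 to 5.73). Nefl (-1.31) and Nefm (-1.03) were lower in 7 of 7 plates, and Nefh (-0.28) and Ina (-0.53) stayed within 1.5-fold. Genes over 1.5-fold higher made up 2.66% and lower 3.97% of all in this comparison. The value for Ina lay near the limit and passed it, at -0.63 or -0.68, without any one of the plates SER12, SER25, SER39 and SER40. Only 2 of the 7 plates were All DR plates.

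Against Gad positive cells without Trh, Trh positive cells still had more Prph in 7 of 7 plates (median log2 ratio 1.66, 251 ± 113 against 79.7 ± 50.6 CPM), where 2.77% of genes were over 1.5-fold higher and 3.09% lower. Nefl (-0.50) and Nefm (-0.13) were then within 1.5-fold. In turn, Gad positive cells without Trh against cells with neither had log2 ratios of -1.01 for Nefl and -1.10 for Nefm, lower in 15 of 15 plates, and of 1.44 for Prph, higher in 13 of 15, beside 0.853% of genes higher and 1.29% lower. Low Nefl and Nefm were thus seen in Gad positive cells with and without Trh, whereas the median of Prph was past 1.5-fold in both steps. For Gad positive cells without Trh against neither, that median was 2.68 over 5 pDR plates. Over 10 All DR plates it was 0.62 (-2.27 to 2.77), close to the line of 0.585. The step from Gad without Trh to Trh had only 2 All DR plates. These 2 comparisons were chosen after the data had been seen.

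Rorb-high cells had median log2 ratios opposite in sign to those of the Gad positive cells. Of the 125 Trh positive cells 0 and of the 325 Gad positive cells 44 were Rorb-high, so these kinds were mostly among the other cells. In the All DR dissection Prph was 5.19 CPM in Rorb-high cells and 8.56 CPM in cells with neither Gad nor Trh. In the 13 plates with enough Rorb-high and other cells, Prph ran from 1.51 over 4.04 to 21.6 CPM in the Rorb-high and from 1.04 over 31.3 to 176 CPM in the other cells. It was lower in 11 of 13 plates, with a median log2 ratio of -2.62 (-4.99 to 0.86). Nefl (0.54), Nefm (0.58) and Nefh (0.53) were higher in 11, 13 and 10 of 13 plates and just under 1.5-fold (0.585 on the log2 scale), a line that 0.804% of genes passed upward and 1.79% downward. Of all genes, 99.0%, 99.2% and 99.0% had a lower ratio than these 3. The value of Nefm was 0.63 without any one of plates SER50, SER52, SER56, SER60, SER63 or SER67. Ina was at 0.18. In the 2 pDR plates with enough Rorb-high cells, the median log2 ratios of Nefl and Nefm were 1.58 and 1.5, and in the 11 All DR plates 0.52 and 0.46.

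Zeb2 positive cells, all in the All DR dissection, had less of all subunits except Ina. In 11 plates the median log2 ratios were -0.87 for Nefl, -0.93 for Nefm and -0.77 for Nefh, lower in 11, 10 and 10 plates, and -3.39 for Prph, lower in 10 of 11. Prph ran from 0 over 1.22 to 9.79 CPM in Zeb2 positive and from 1.65 over 23.9 to 52.9 CPM in other cells. Of the 125 Trh positive cells 0 and of the 325 Gad positive cells 32 were Zeb2 positive. Prph was 2.79 CPM over all Zeb2 positive cells and 8.56 CPM over All DR cells with neither Gad nor Trh. Ina was 333 ± 33.1 CPM against 290 ± 26.5 CPM (SD over plates), higher in 10 of 11 plates, with a log2 ratio of 0.20. This contrast was wide in general, with 3.98% of genes over 1.5-fold higher and 7.73% lower. Of all genes, 5.07% had a lower ratio than Nefl, 4.65% than Nefm and 5.65% than Nefh.

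In Irx2 positive cells, Prph was the 1 gene of the 5 past 1.5-fold. It ran from 0 over 1.47 to 10.2 CPM in Irx2 positive and from 2.87 over 24.5 to 43.2 CPM in other cells, lower in 11 of 11 plates (median log2 ratio -2.68), where 1.58% of genes were over 1.5-fold higher and 2.61% lower. Nefl (-0.02), Nefm (0.05) and Ina (0.02) were near 0, with plates on both sides, and Nefh was at -0.28 and lower in 9 of 11. Of the 125 Trh positive cells 1 and of the 325 Gad positive cells 28 were Irx2 positive. In the All DR dissection Prph was 2.48 CPM in Irx2 positive cells and 8.56 CPM in cells with neither Gad nor Trh.

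**Figure D3:**
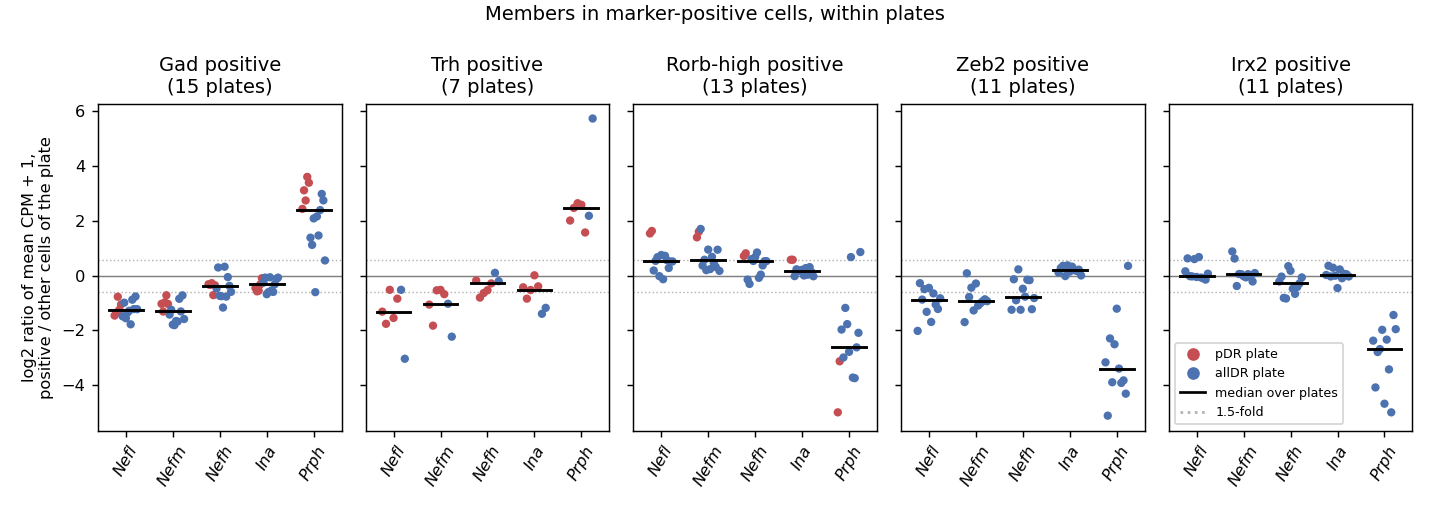
Log2 ratio of mean CPM + 1 in marker-positive over other cells of the same plate for each gene and class, with 1 point a plate (coloured by dissection), a black line at the median over plates and dotted lines at 1.5-fold. Prph is high in Gad and Trh positive and low in Rorb-high, Zeb2 and Irx2 positive cells, and Nefl and Nefm are low in Gad, Trh and Zeb2 positive cells.

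Per length of transcript, the RNA of the 5 genes was mostly Ina and Nefl in cells with neither Gad nor Trh. In cells with both it was mostly Prph, and protein was not measured. In cells with neither Gad nor Trh, Ina made up 44.7%, Nefl 35.6%, Nefm 12.3%, Nefh 4.94% and Prph 2.44%. In cells with Gad and Trh together, Prph made up 62.5%, Ina 22.2%, Nefl 8.62%, Nefh 4.18% and Nefm 2.48%. Of the 663 cells with neither, 555 were All DR cells, and of the 114 cells with both, 88 were pDR cells. Within the dissections the share of Prph was 64.4% (pDR) and 53.5% (All DR) in cells with both. In cells with neither it was 5.62% and 1.98%. Zeb2 positive cells had the largest share of Ina of the 5 classes, 64.3%, with Nefl at 22.4% and Prph at 0.853%. The summed level of the 5 genes was 176 CPM per kb in cells with Gad without Trh, 255 in Rorb-high cells and 272 in the 11 cells with Trh without Gad. In cells with both Gad and Trh and in cells with neither it was 231 and 236 CPM per kb over all cells, but 247 against 184 in the pDR and 177 against 247 in the All DR dissection, so that the order of these kinds differed between the dissections.

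**Figure D4:**
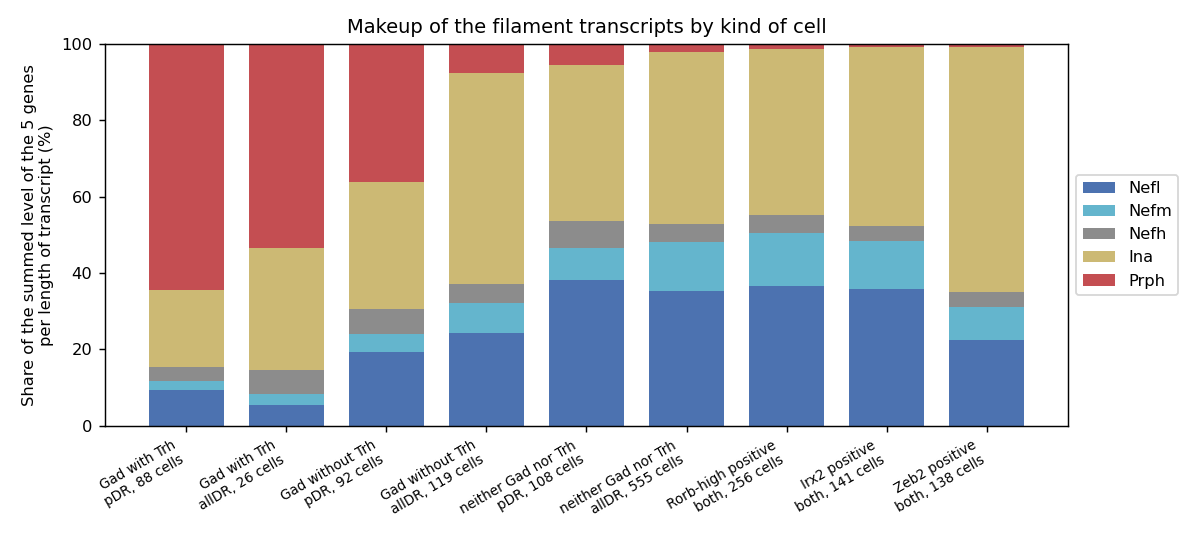
Share of each of the 5 genes in their summed level per length of transcript (stacked to 100%) for cells with Gad and Trh, Gad alone or neither in each dissection, and for Rorb-high, Irx2 and Zeb2 positive cells of both. Prph takes 64.4% and 53.5% in cells with Gad and Trh (pDR and All DR) and 0.853% in Zeb2 positive cells, where Ina takes 64.3%.

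Correlations across cells were taken within each plate on ln(CPM+1), so that differences between plates do not enter, and averaged over the 16 plates with the number of cells as weights. The cells of a plate share its preparation, and r describes them with no test. Nefl and Nefm were correlated at 0.65, with 0.28 to 0.82 over the plates and above 0 in 16 of 16. Each was the gene with the highest r to the other among 8086 partners, beside a median of 0.04 for Nefl and of 0.06 for Nefm. As stated above, these 2 genes share exon bases on opposite strands. Ina followed with 0.33 to Nefl and 0.32 to Nefm, and Nefh with 0.26 and 0.29, each pair above 0 in 15 of 16 plates. Nefh and Ina were nearly unrelated (0.11, above 0 in 9 of 16).

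Prph had negative correlations with 3 of the other members. Its r was -0.18 with Nefl, -0.13 with Nefm and -0.23 with Ina, below 0 in 13, 12 and 12 of 16 plates, and 0.08 with Nefh. In the 663 cells with neither Gad nor Trh, the r of Prph was 0.09 with Nefl, 0.08 with Nefm and -0.06 with Ina, while Nefl and Nefm were at 0.61. The r of Nefl with Ina was 0.12 in those cells. The sign of r between Prph and both Nefl and Nefm thus differed between all cells and the cells without these markers, and in Gad positive cells it was -0.16 and -0.10. In the cells without these markers the plates ran from -0.28 to 0.27 for Nefl and from -0.27 to 0.39 for Nefm. Prph had a read in only 153 of these 663 cells (23.1%). Over all cells, the r of all genes with Prph had a median of 0.04 and a 95th percentile of 0.15.

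**Figure D5:**
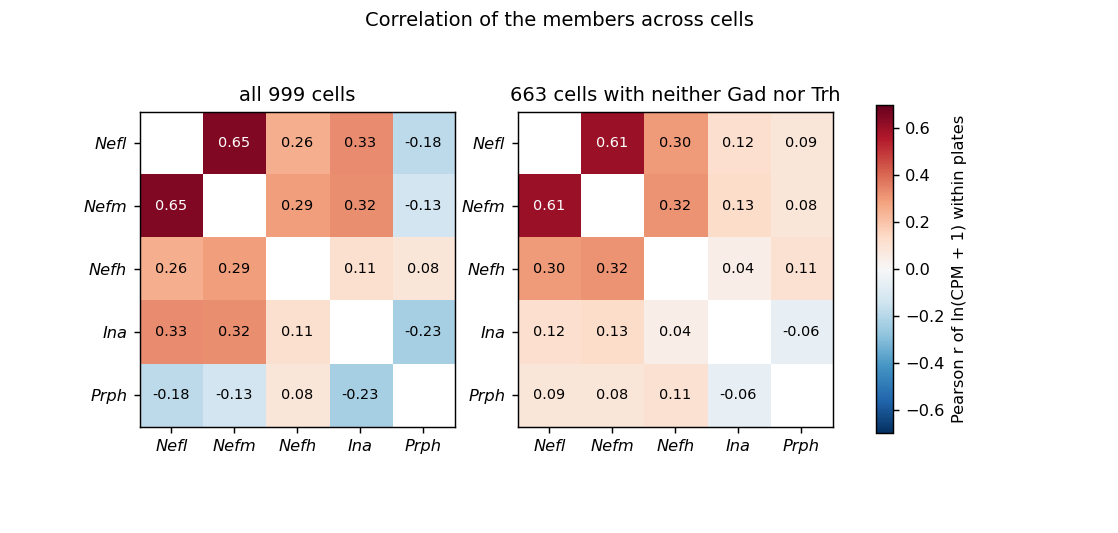
Mean within-plate Pearson r of ln(CPM+1) for each pair of the 5 genes over all 999 cells (left) and over the 663 cells with neither Gad nor Trh (right). Nefl and Nefm are at 0.65 and 0.61, and the pairs of Prph with Nefl and Nefm go from -0.18 and -0.13 to 0.09 and 0.08.

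Inside the Gad positive cells, Prph rose with Trh (r = 0.51, above 0 in 13 of 14 plates with at least 8 such cells and a spread of both genes). Inside the Trh positive cells the r of Trh with Prph was 0.16 over 90 cells on 5 plates, above 0 in 3. Nefl and Nefm had r of 0.55 and 0.59 in these 2 sets.

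The genes other than the 5 members whose pattern was most like each member, by the same measure among genes with a mean of at least 10 CPM, were these. For Nefl they were Ntm, a cell adhesion protein (0.46), Crhr2, a receptor for corticotropin-releasing factor and urocortins (0.42), Slc17a8, the vesicular glutamate transporter Vglut3 (0.40), Cited1, a transcriptional coactivator (0.40), and Htr5b, a serotonin receptor (0.35). For Nefm the list was nearly the same, with Ntm (0.42), Crhr2 (0.42), Cited1 (0.40), Fbxo2, an F-box protein that binds glycoproteins (0.38), and Htr5b (0.37). All of these were above 0 in 16 of 16 plates.

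For Nefh the most alike were Pkm, a pyruvate kinase (0.33), Crhr2 (0.31), the synaptic SNARE gene Snap25 (0.31), Lynx1, a modulator of nicotinic receptors (0.29), and the sodium channel subunit Scn2b (0.29), with Nefm itself (0.29) between Snap25 and Lynx1. The r with the number of detected genes of a cell was 0.41 for Nefh and 0.38 for Nefm, both above the 95th percentile of all genes (0.34), and 0.27 to 0.29 for the other 3 members. For Ina they were Grm7, a metabotropic glutamate receptor (0.44), Sult4a1, a brain sulfotransferase (0.42), Fbxo2 (0.40), the nuclear receptor Nr2f2 (0.39) and Cited1 (0.39).

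For Prph they were Pcsk6, a proprotein convertase (0.59), Trh (0.52), Wfdc12 (0.49), Tmem114 (0.45) and Nhsl1 (0.45), and Trh was above 0 in 14 of the 14 plates where it was read. Trh and Gad2 stood at the other end for Nefl (-0.36 and -0.40). Of the serotonin identity genes, Fev, the transcription factor of these neurons, was correlated at 0.28 with Prph and at -0.27 with Nefl, and Slc6a4, the serotonin transporter, at 0.31 with Prph and 0.08 with Nefl. Tph2, the enzyme of serotonin synthesis, had r of 0.14 to 0.27 with all 5.

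Few genes of the rest of the filament and axonal transport machinery passed 1.5-fold in these classes, and few of all genes did. Over all 8087 genes the share past it in 1 direction ran from 0.804% (higher in Rorb-high cells) to 7.73% (lower in Zeb2 positive cells). Low counts in such short lists therefore do not set them apart from other genes. Of 17 other intermediate filament genes 5 were tested, and the only one past 1.5-fold in any class was Vim, vimentin, with log2 ratios of -0.96 in Trh, 0.86 in Rorb-high, -1.22 in Zeb2 and 1.39 in Irx2 positive cells. None of the 5 passed in Gad positive cells. Of 14 genes of filament linkers, kinases and turnover 10 were tested, and 0 passed 1.5-fold in any of the 5 classes. The cytolinker gene Plec came closest in Gad positive cells, at -0.52, and was chosen here after its value was seen. Of 11 axonal transport motor genes 10 were tested, and Dync1i1, a dynein subunit, was lower in Zeb2 positive cells (-1.03) and 0 passed in the other classes. Of 23 microtubule and growth-associated genes all were tested, and 2, Stmn4 and Basp1, were higher in Zeb2 positive cells (0.77 and 0.66). The medians of these 4 lists in Gad positive cells were -0.06, 0.01, -0.07 and -0.06, beside -0.01 for all genes. The members themselves counted 1 higher and 2 lower of 5 in Gad and in Trh positive, 0 and 1 in Rorb-high and in Irx2 positive, and 0 and 4 in Zeb2 positive cells.

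Between the dissections the same lists counted 0 higher and 2 lower of 5 other filament genes in the pDR (Vim at -0.99 and Lmnb2 at -0.64), 2 higher and 0 lower of 10 linkers, kinases and turnover genes (Sod1 at 1.57 and Gsk3b at 1.05), 0 of 10 motors, and 0 higher and 3 lower of 23 microtubule and growth-associated genes (Map1a at -0.62, Tubb2b at -0.59 and Dpysl3 at -0.79). Their medians were -0.49, 0.08, -0.15 and -0.19 on the log2 scale, beside -0.03 for all genes. The microtubule protein genes Tubb3 and Map1b had the highest mean r with the members among these lists, with 0.33 and 0.30 for Nefm and 0.34 and 0.30 for Ina, and were picked after their values were seen.

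The share of the variance of ln(CPM+1) over cells that lay between the dissections was 22.7% for Prph, 19.3% for Ina, 8.21% for Nefm, 2.44% for Nefl and 0.24% for Nefh, beside a median of 0.806% over all genes. Between plates of the same dissection it was 0.937% to 3.53% for the 5 genes, and the remainder, 76.4% for Prph and 96.2% for Nefh, lay among cells of the same plate.

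Markers of other cells moved with Prph in part. The summed level of the 5 astrocyte markers had a median of 1363 CPM in the 319 cells with at least 10 CPM of Prph and of 696 CPM in the others, and ranged from 675 to 1711 CPM and from 335 to 845 CPM over the medians of plates. Nearly all of it was Aldoc, which was read in 99.3% of all cells. Of the 4 others, Aqp4, Slc1a3, Gja1 and Aldh1l1, each had a read in at most 5.11% of the 999 cells. The median of the 6 oligodendrocyte markers was 110 and 102 CPM in the same 2 sets. Cholinergic genes, 3 of the 7 motor neuron markers with any detection, had a median of 0. Chat had a read in 7 of the 319 cells with at least 10 CPM of Prph and in 1 of the 680 others, Slc5a7 in 5 and 2, and Slc18a3 in 2 and 2. Isl1, Mnx1 and Phox2a were each read in fewer than 3 cells. Without the 5 cells with at least 10 CPM of Chat, Slc5a7 or Slc18a3, the log2 ratio of Prph in Gad positive cells was 2.39.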

How the data were processed

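Single-cell Smart-seq2 libraries of 999 cells were analysed. The other 537 of 1536 labelled cells were not analysed here. Per the study's methods and processing notes the authors made reads with bcl2fastq 2.19.0.316, aligned them to mm10 with STAR 2.6.1a, counted them on genes without strand with HTSeq 0.11.2, removed Y-linked genes and deposited CPM, the counts of a gene per 1000000 counted reads of the cell. The annotation version is not given in the sources used here. All values above 0 were whole multiples, within 0.001, of the worth of 1 read, which gave the reads per cell and so the precision of each value. No column was left out.

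Cells needed 300 detected genes, 50000 reads and 1 read of Tph2, and all 999 passed. Cells were sorted singly, and no doublet caller was run. The 5 members, the marker classes, the gene lists and the alternatives were chosen with earlier results of these data known. Genes named are the members, the class markers, the serotonin identity genes and the 5 genes most correlated with each member. At most 10 genes of each list, those with the highest mean, could be named by that rule. Other list genes were picked after their values were seen, mostly because they passed 1.5-fold. Among these were Sptbn4, Scn8a, Kcna2, Kcnq3, Scn1a, Stmn4, Basp1, Map1a, Tubb2b and Dpysl3. Values of some single list genes are not reported here.

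The dissection contrast was the log2 ratio of the mean over plates of the plate mean CPM plus 1. A class contrast was the log2 ratio of mean CPM plus 1, positive over other cells, in each plate with at least 5 of both, and the median over plates. A ratio past 1.5-fold was counted, beside the share of the 8087 genes with a mean of at least 10 CPM that passed it. The labels name no animals, so no test was made. Shares carry exact Clopper-Pearson 95% intervals, and a limit for 0 cells is 3 cells over the total, both for counting error only. Python 3.11.15, NumPy 2.4.6, pandas 2.3.3, SciPy 1.17.1 and matplotlib 3.10.9 were used, and the contrasts and correlations were tested on simulated data. Alternatives were a pseudocount of 10 CPM, mean log2 values, thinning to 250000 reads, at least 500000 reads, other scaling, thresholds, minimum cells, reference cells and background genes, Spearman correlations, adjustment for depth, cells left out by markers and each plate left out. The first 250 bases of each RefSeq promoter window were searched for motifs, and the 50 bases after the start were not used.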

Additional observations from a re-analysis of the deposited data

Results flagged for a closer look

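In Gad positive cells of the 5 pDR plates, the log2 ratio of Nefh to the other cells of the plate was -0.71 on plate SER39, a value far below those of the other 4 pDR plates, which lay between -0.35 and -0.28. The mean was 26.4 CPM in the Gad positive and 43.9 CPM in the other cells of that plate. Of the 10 All DR plates, 4 had a lower ratio than this one (down to -1.17). Such a check marks about 1 in 20 groups by chance alone.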

How the results depend on the processing

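Of 125 alternative values of the dissection contrasts, 120 moved by less than the SD between plates, of 690 of the class contrasts 676, and of 210 correlations 206. Of these 3 totals, 80, 400 and 160 were values with 1 plate left out, and all of those moved by less. Leaving out 1 of several plates can hardly move a mean or median over plates by that SD, so these values add little to the counts. Prph past 1.5-fold held its direction in all alternatives of the dissection and of all 5 classes, and passed 1.5-fold in each except in Rorb-high cells with mean log2 values (-0.54). With mean log2 values the log2 ratios in Gad positive cells were -2.03 for Nefl and -0.58 for Ina, and of Prph 4.45 in Trh, -1.06 in Zeb2 and -0.98 in Irx2 positive cells. With a pseudocount of 10 CPM, Prph was at -1.52 in Zeb2 and -1.38 in Irx2 positive cells, as the larger pseudocount shrinks ratios of low means. With positivity from 50 CPM, Nefh was at -0.91 in Trh and -1.23 in Irx2, Nefl at -1.57 in Zeb2 and Nefm at -0.66 in Irx2 positive cells, and Nefl, Nefm and Nefh in Rorb-high cells passed 1.5-fold. With at least 3 cells a plate, Nefm was at -1.75 in Trh positive cells, and against Gad positive cells without Trh at -0.13. Within only Gad positive cells the dissection ratios of Nefl and Nefm were -0.41 and -0.87, and within cells with neither Gad nor Trh those of Nefl, Ina and Prph were -0.43, -0.66 and 0.93. Without Gad and Trh positive cells the correlation of Nefl with Ina was 0.12, and those of Nefl and Nefm with Prph turned to 0.087 and 0.085. After adjustment for reads and detected genes, that of Nefh with Ina turned to -0.038. The cause of these changes was not tested. Whole transcript lengths gave shares per length of 23.8% for Nefl, 11.9% for Nefm and 15.7% for Prph.

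Nefm had a read in 77.5% of pDR cells after thinning to 250000 reads, which left out 9 cells. With expression from 5 reads, the shares of pDR and All DR cells were 73.4% and 87.3% for Nefm and 88.6% and 85.3% for Nefh. From 10 CPM they were 69.7% and 85.9% for Nefm, 85.2% and 82.5% for Nefh, 61.4% and 19.9% for Prph, and 89.3% of pDR cells for Nefl. A pseudocount of 10 CPM or mean log2 values moved the share of all genes past 1.5-fold by over 1.5 times in 18 of 28 counts. With the pseudocount the shares higher and lower were 6.23% and 2.6% in the pDR, 0.791% and 0.631% in Gad, 1.55% and 1.98% in Trh, 0.334% and 0.903% in Rorb-high and 0.816% and 1.58% in Irx2 positive cells, and 2.5% higher in Zeb2. With mean log2 values they were 15.2% lower in the pDR, 2.78% lower in Gad, 7.11% higher in Trh, 2.1% higher in Rorb-high, 8.74% higher in Zeb2, and 2.82% higher and 4.12% lower in Irx2 positive cells. With positivity from 50 CPM those of Irx2 were 3.75% and 6.15%, and against cells of none of the classes 1.4% were higher in Rorb-high cells. Scaling without the 100 most abundant genes shifted the median of all genes by at most 0.04 on the log2 scale in size. Leaving out any 1 plate moved none of the members' values by more than the SD between plates and reversed none past 1.5-fold, while values near 0 crossed it for Nefh between the dissections (-0.03 to 0.17) and Nefl in Irx2 positive cells (-0.03 to 0.03). Without plate SER25, 8.74% of all genes had every pDR plate above every All DR plate, in place of 5.08%. No paired analysis was possible because the labels give no replicate numbers shared between the dissections and no test was made. Reads of Prph were rare in Zeb2 and Irx2 positive cells, with plate means as low as 0 CPM, so its ratios there rest on few reads.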

Other observations

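Genes of the axon and its excitable membrane were counted with the same rule, beside the shares of all genes given above. Of 18 axon initial segment and node genes 16 were tested. In Trh positive cells 5 were over 1.5-fold lower and 0 higher, among them Sptbn4, a spectrin (log2 ratio -1.05), the sodium channel gene Scn8a (-0.70), and the potassium channel genes Kcna2 (-0.75) and Kcnq3 (-1.26). In Gad positive cells Kcnq3 was the 1 gene of the 16 past 1.5-fold (-0.99). In Zeb2 positive cells 2 were lower (Scn1a, -1.09, and Cntnap2, -0.77), and in Rorb-high and Irx2 positive cells 0 passed. Between the dissections 3 were higher in the pDR (Cntn1 at 0.88, Sptbn1 at 0.74 and Cntnap2 at 0.68). The genes named from this list were picked because they passed 1.5-fold.

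Of 11 genes of large fast-firing neurons, where neurofilaments are known to be abundant, 6 were tested. Spp1, osteopontin, had log2 ratios of 2.74 in Gad and 2.75 in Trh positive cells and of -1.34 in Rorb-high and -4.51 in Zeb2 positive cells, the same signs as Prph. It was at 0.36 in Irx2 positive cells and at -1.20 in the pDR over the All DR dissection, the opposite signs to Prph. In Trh positive cells 1 of the 6 was higher and 3 lower, with Vamp1 at -0.67, Thy1 at -0.92 and Cplx1 at -0.71. In Zeb2 positive cells 1 was higher (Thy1, 0.76) and 2 lower, with Kcnc1 at -0.96. In Irx2 positive cells 0 passed.

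Of 7 axon injury response genes 4 were tested. Sox11, a developmental transcription factor gene, was at 1.5 in Zeb2, -1.93 in Irx2 and -0.76 in Rorb-high cells, Flrt3 at 1.21 and Gadd45a at -0.91 in Zeb2 positive cells, and 0 of the 4 passed in Gad and in Trh positive cells. In the pDR 1 was higher and 2 lower, with Jun at -1.50. Of 7 immediate-early genes 4 were tested, and all 4 were lower in the pDR (Fos, Egr1, Nr4a1 and Junb). They were 0 of 4 in Gad, 2 lower in Trh, 3 lower in Rorb-high, 1 higher in Zeb2 and 1 lower in Irx2 positive cells, and their median r with each of the 5 members was between 0.00 and 0.02 in size.

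Of 4 serotonin identity genes, all tested, Fev was higher in Trh positive cells (0.69) and Slc6a4 lower in Zeb2 positive cells (-0.66), and 0 passed elsewhere. Of 6 oligodendrocyte markers 4 were tested, and 1 was lower in Gad, 1 in Trh, 1 in Rorb-high, 3 in Zeb2 and 0 in Irx2 positive cells, and 3 were lower in the pDR. Of 5 astrocyte markers Aldoc alone was tested, at 0.70 in Gad, 0.55 in Trh, -0.35 in Rorb-high, -1.53 in Zeb2 and -0.16 in Irx2 positive cells, and 0.57 in the pDR. Microglia, endothelial and dopamine neuron markers had median summed levels of 0 CPM in cells with at least 10 CPM of Prph and in those below. The microglia and endothelial genes Csf1r, P2ry12, Flt1 and Pecam1 were each read in at most 5 of the 319 and at most 10 of the 680 cells. Th, the enzyme of dopamine synthesis, had a read in 28 of 319 and in 25 of 680 of these cells (means of 1.26 and 0.40 CPM), and its part in the Prph values was not tested. Of 6 class markers 4 were tested. They define the classes and are not read here.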
